A study of Mus musculus with 7 samples.

Results

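The genes examined encode the enzymes and transporters that take glucose to pyruvate, turn pyruvate into lactate, admit it to the mitochondrion and oxidize it in the tricarboxylic acid (TCA) cycle. They were chosen by name, 39 genes in all, with earlier results of these data known. Each name was matched to the gene symbol of the array's probes. The array listed a probe for 36 of them, and 33 were kept because a probe lay above background (detection p under 0.01) on at least 1 array, out of 9213 genes kept in the same way. Gpi1, Eno1 and Ldhb were not listed under those symbols, and Pgam2, Slc16a1 and Sucla2 were above background on no array.

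Total RNA of 7 mouse pluripotent cell lines was measured on Illumina bead arrays, 1 array per line. Epiblast stem cell (EpiSC) lines C1a1, T9, E3, E5, OG2.1 and OG2.2 resemble the epiblast after implantation, and the embryonic stem cell (ESC) line R1, titled mESC in the labels, resembles the epiblast before it. The labels give the cell type and the line, and no treatment; the sources used here do not give medium, feeder cells, passage or genotype. Each line is 1 culture sampled once, so every p-value rests on the spread between EpiSC lines, which includes culture and array differences. R1, with 1 array, adds nothing to that spread. A difference between cell types cannot be told apart from a difference of R1 or its array.

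Values are background-corrected, quantile-normalized log2 intensities, and a difference is EpiSC minus ESC unless another is named. Of 25697 probes, 41.4% to 45.0% were above background, and precision is limited by having 7 arrays. The labelled cell types were checked against markers. All 9 tested naive ESC genes, Zfp42 and Esrrb among them, passed as lower in the EpiSC lines, against 8.11% of all genes. On the EpiSC list, 4 of 8 genes, Fgf5 and Dnmt3b among them, passed as higher, against 7.1% of all genes. Nodal, on the same list, was below R1 in all 6 lines and did not pass (-1.96, adjusted p = 0.302). Cer1 and Foxa2 did not pass and were above background in neither OG2.2 nor E5. The probes of the naive genes Tbx3, Dppa3 and Tcl1 were above background in R1 alone. Those of Fgf5, Pim2, Cer1 and Foxa2 were above background only in EpiSC lines, so the counts of both lists partly reflect the filter. Of 11 fibroblast and feeder genes, 5 (Col1a2, Col3a1, Lum, Postn and S100a4) were above background on no array. The median of the other 6 was 6.54 to 9.30 in the EpiSC lines and 6.61 in R1. Of them 2 (Thy1 and Mmp2) passed as higher in EpiSCs, against 7.1% of all genes. Loxl1 was below R1 in all 6 lines (-1.37) and did not pass. Dcn was 9.30 in E5 and 8.99 in OG2.1, and not above background in E3, T9 or R1. The probes of Dcn and Col1a1 were above background only in EpiSC lines, so the medians of this list partly reflect the filter. The part of fibroblast or feeder cells in the results was not tested.

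Glycolysis splits glucose into pyruvate in the cytosol with a small yield of ATP, and lactate dehydrogenase then regenerates the NAD+ that the pathway needs. Pyruvate dehydrogenase commits pyruvate to the TCA cycle, and its kinases switch it off. Mouse epiblast after implantation and the EpiSCs derived from it are known to lean more on glycolysis than naive ESCs, which use both glycolysis and mitochondrial respiration. Most steps have isoforms, encoded by separate genes, that differ in regulation and tissue.

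Limma, fitted across all 9213 genes at an adjusted p (Benjamini-Hochberg) under 0.05, called 8 of the 33 genes between the EpiSC lines and R1, or 24.2%, against 15.2% of all genes. The genes were chosen with earlier results of these data known, so a share above that of all genes is no independent support. Higher in EpiSCs were 6, namely Pfkl, Aldoc, Tpi1, Pkm, Ldha and Slc16a3, against a background of 7.1%, and lower were 2, Hk1 and Pfkp, against 8.11%. All 8 lie between glucose and the export of lactate: 4 of the 16 tested genes from glucose to pyruvate were higher and 2 lower, and both tested lactate genes were higher. None of the 6 pyruvate entry genes and none of the 9 TCA cycle genes passed. Median differences were 0.80 from glucose to pyruvate, 2.90 for lactate, -0.15 for pyruvate entry and -0.22 for the TCA cycle, against 0.05 over all genes. Without regard to a test, all 6 EpiSC lines lay above R1 for 15 genes (45.5%, against 29.7% of all genes) and below it for 9 (27.3%, against 26.1%), and 55.8% of all genes lay on one side. Slc16a3, 1 of the 2 tested lactate genes, was kept only through the EpiSC lines, as were Pgk1 and Eno2. Pcx was kept only through R1, so these counts and medians partly reflect the filter. In bulk RNA, fewer cells of a type and less RNA per cell cannot be told apart, and the added offset makes a log2 difference understate the change of dim genes such as Hk1, Pgk1 and Slc16a3.

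**Figure D1:**
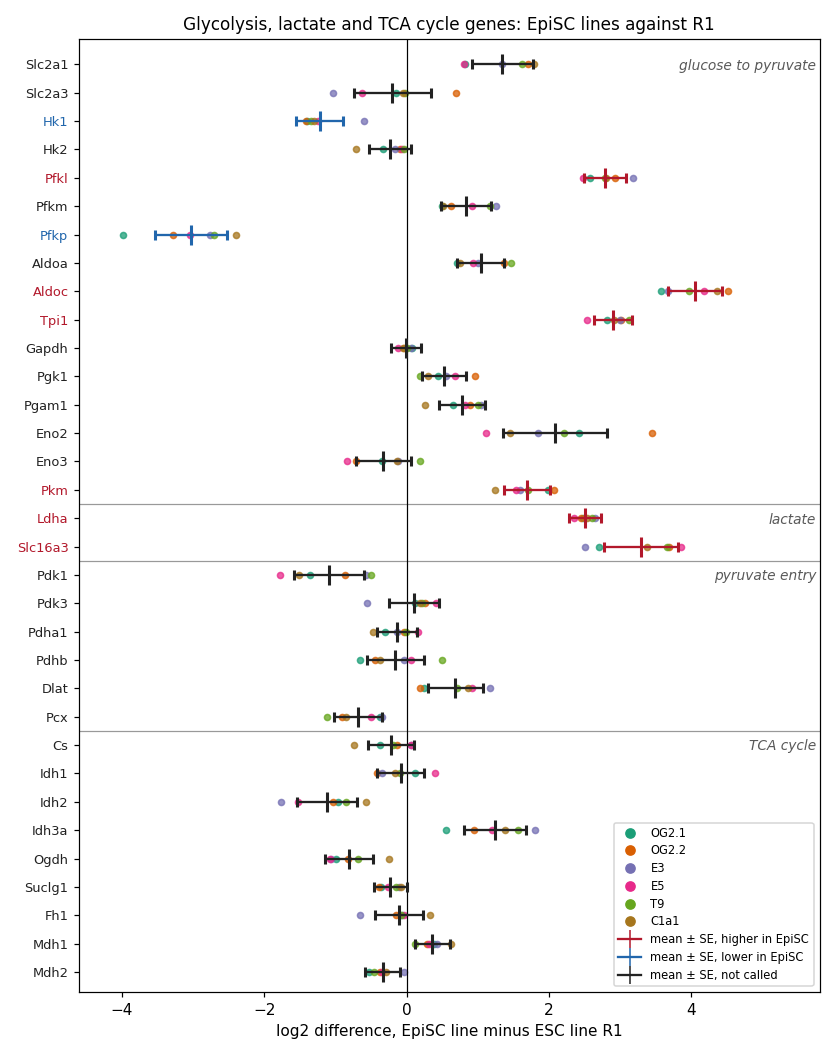
Log2 difference of each EpiSC line from R1 (coloured points) for the 33 genes, with the mean of the 6 lines (vertical tick) and its SE from limma (bar), grouped by position in the pathway. The 8 genes that passed (red and blue names) all stand in the upper 2 groups, and the TCA cycle genes lie between -1.12 and 1.24 on average.

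Glucose enters through the facilitative transporters Slc2a1 (GLUT1) and Slc2a3 (GLUT3). Slc2a1 had 12.53 as the lowest, 13.21 as the median and 13.51 as the highest value in the EpiSC lines, against 11.72 in R1. All 6 lines lay above R1, and the difference of 1.35 (SE 0.42) did not pass (adjusted p = 0.0710). It passed without E5 (1.46, adjusted p = 0.0463) and with a trended, robust variance (adjusted p = 0.0432). Slc2a3, with a range of 12.11 to 13.84 in the EpiSC lines around the 13.15 of R1, had a difference of -0.20 (SE 0.54, adjusted p = 0.843).

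Hexokinases trap glucose as glucose-6-phosphate. Hk1, the broadly expressed isoform, had 5.83 in OG2.1, 5.82 in OG2.2, 6.63 in E3, 5.99 in E5, 5.89 in T9 and 5.93 in C1a1, against 7.23 in R1. No EpiSC line reached R1, and E3 stood closest to it. The gene fell by 1.22 (SE 0.33, adjusted p = 0.0429), a call that rests near the threshold: it passed in 6 of the 15 settings run and was lost without OG2.1, OG2.2, E5, T9 or C1a1 (adjusted p from 0.0611 to 0.0793). Without background correction the difference was -0.62 (adjusted p = 0.0488). Its signal in the EpiSC lines, 151 to 184, was close to the array medians of 123.4 to 131.3. Hk2, the isoform linked to rapid growth, was bright on every array (11.61 to 12.29 in EpiSC lines and 12.32 in R1) and differed by -0.23 (SE 0.30, adjusted p = 0.656).

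Phosphofructokinase commits sugar to glycolysis, and its subunit genes did not move as one. Pfkl, the liver-type subunit, had 12.42 in OG2.1, 12.78 in OG2.2, 13.03 in E3, 12.33 in E5, 12.63 in T9 and 12.65 in C1a1, against 9.85 in R1. The groups did not overlap, and the 2.79 difference (SE 0.29, adjusted p = 6.40e-04) is 6.92-fold on this scale. A dim second probe, not above background in R1, gave 0.96 (SE 0.36, adjusted p = 0.121 over all kept probes), and the mean of both probes 1.87. In deposited signal the same probe read 5375 to 8454 in the EpiSC lines and 1002 in R1.

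Pfkp, the platelet-type subunit, ran the other way. It had 6.31 in OG2.1, 7.01 in OG2.2, 7.53 in E3, 7.24 in E5, 7.58 in T9 and 7.89 in C1a1, against 10.29 in R1. Every EpiSC line was below R1, with C1a1 closest at a difference of -2.40 and OG2.1 the lowest. The gene fell by 3.03 (SE 0.51, adjusted p = 0.00667), 8.16-fold on this scale, and a dimmer second probe fell by 2.36 (SE 0.33, adjusted p = 0.00254 over all kept probes). Pfkm, the muscle-type subunit, was above R1 in all 6 lines (10.36 to 11.13, against 9.87) and did not pass (0.83, SE 0.35, adjusted p = 0.162). The promoter stretches of the 2 subunits with opposite changes are shown from the RefSeq table of GRCm38.p6, 150 bases up to the transcript start, 5′ to 3′ on the gene's strand. Capitals mark ACGTG or GCGTG on either strand, the core letters of the element bound by hypoxia-inducible factors.
Pfkl, chr10:78009808-78009957, minus strand: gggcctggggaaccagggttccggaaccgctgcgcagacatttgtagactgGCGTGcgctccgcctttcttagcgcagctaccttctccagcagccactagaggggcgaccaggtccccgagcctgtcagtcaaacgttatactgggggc
Pfkp, chr13:6648772-6648921, minus strand: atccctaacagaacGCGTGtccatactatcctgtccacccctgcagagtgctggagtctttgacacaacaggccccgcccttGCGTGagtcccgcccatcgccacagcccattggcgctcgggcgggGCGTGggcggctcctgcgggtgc
The Pfkl stretch holds 1 GCGTG and the Pfkp stretch 3, and neither holds ACGTG.

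Aldolase cleaves fructose-1,6-bisphosphate. Aldoc, an isoform best known from brain, had 9.28 in OG2.1, 10.22 in OG2.2, 9.37 in E3, 9.89 in E5, 9.67 in T9 and 10.07 in C1a1, against 5.70 in R1. R1 was only just above background, and all 6 EpiSC lines lay far above it. The difference of 4.05 (SE 0.38, adjusted p = 3.67e-04) was the largest of the 33 genes on this scale. It was not the largest in the deposited log2 values, where Aldoc differed by 4.63 and Slc16a3 by 5.17, or without background correction, where Aldoc differed by 2.71 and Tpi1 by 2.82. Aldoa, the main aldolase of most tissues, was brighter than R1 in all 6 lines as well (12.50 to 13.25, against 11.78) but did not pass (1.04, SE 0.33, adjusted p = 0.0751) except with a trended, robust variance (adjusted p = 0.0396).

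Tpi1 interconverts the triose phosphates that aldolase releases. It had 13.37 in OG2.1, 13.58 in OG2.2, 13.55 in E3, 13.10 in E5, 13.69 in T9 and 13.47 in C1a1, against 10.56 in R1. The EpiSC lines stood within 0.59 of each other and at least 2.54 above R1. The increase was 2.90 (SE 0.27, adjusted p = 3.55e-04), and a second probe gave 2.85 (SE 0.29), while the dimmest of the 3 probes gave 0.49 (SE 0.31, adjusted p = 0.355 over all kept probes).

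The next steps convert triose phosphates to phosphoenolpyruvate. Gapdh, the glyceraldehyde-3-phosphate dehydrogenase often used as a reference gene, ranged from 14.55 to 14.75 in the EpiSC lines and was 14.68 in R1, a difference of -0.01 (SE 0.21, adjusted p = 0.977). Its probe was among the brightest of each array, with 6 to 35 probes brighter. The Gapdh signal was 24749 to 27176 in the EpiSC lines and 25827 in R1, near the highest signal of each array (28202 to 32564). Whether this limited its difference or its spread was not tested. Pgk1, the first ATP-making enzyme of the pathway, was read by a probe close to background (5.82 to 6.59 in EpiSC lines, not above background in R1). It was at least 1.38-fold higher in EpiSCs and did not pass (adjusted p = 0.317). Pgam1, a phosphoglycerate mutase, lay above R1 in all 6 lines (10.54 to 11.34, against 10.29) and did not pass either (0.78, SE 0.32, adjusted p = 0.150).

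Eno2, the neuronal enolase, had the widest spread of any of the 33 genes among the EpiSC lines. It had 7.19 in OG2.1, 8.22 in OG2.2, 6.61 in E3, 5.89 in E5, 6.98 in T9 and 6.22 in C1a1, and was not above background in R1. All 6 lines were above R1, by at least 2.23-fold on average on this scale, without passing (fitted difference 2.08, SE 0.73, adjusted p = 0.0967). The fitted difference was 0.88 without background correction and 3.23 in the deposited log2 values. Eno3, the muscle enolase, overlapped R1 (-0.33, SE 0.39, adjusted p = 0.624). The probe listed for Eno1b, a gene for which RefSeq gives Eno1 as an older name, was looked up after these values were seen: it had 9.55 to 10.43 in the EpiSC lines and 8.63 in R1, a difference of 1.44 (SE 0.34, adjusted p = 0.0272). The probe's name does not tell whether it reads Eno1 or a copy of it.

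Pkm, the pyruvate kinase gene whose splice forms set the last step of glycolysis, had 14.42 in OG2.1, 14.49 in OG2.2, 14.02 in E3, 13.97 in E5, 14.14 in T9 and 13.68 in C1a1, against 12.43 in R1. C1a1 was the lowest EpiSC line and still 1.25 above R1. The increase was 1.69 (SE 0.33, adjusted p = 0.0113). The table gives 1 probe for the gene and does not tell its splice forms apart.

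**Figure D2:**
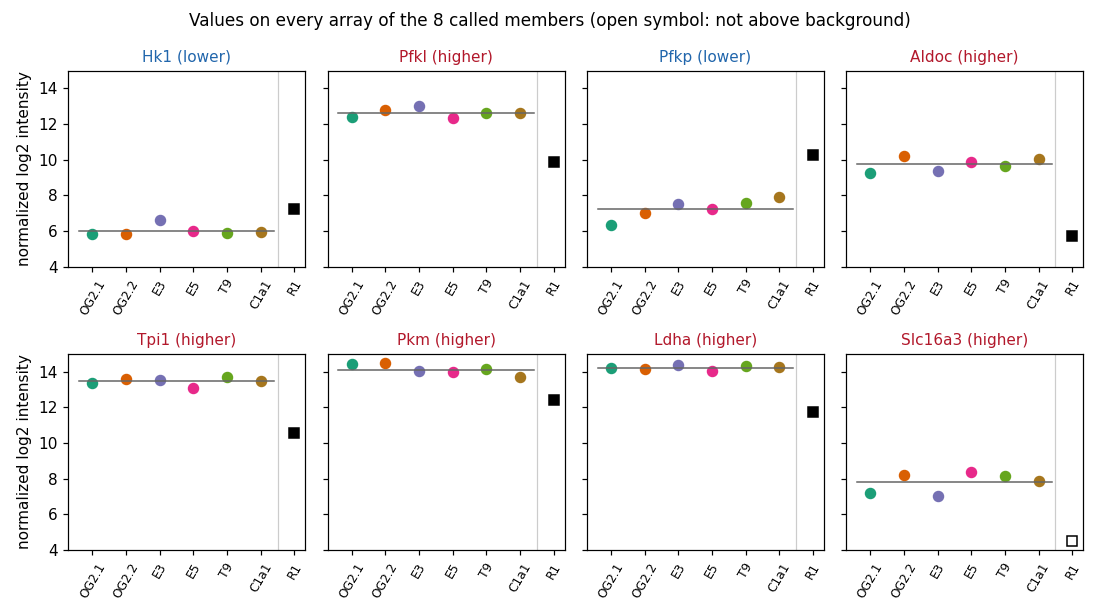
Normalized log2 intensity of the 8 genes that passed, on each of the 6 EpiSC arrays (circles, with a line at their mean) and on the R1 array (square); an open symbol is a value not above background. In every panel the 6 EpiSC lines lie on one side of R1, above it in 6 panels and below it for Hk1 and Pfkp.

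Ldha encodes the lactate dehydrogenase subunit that favours the reduction of pyruvate to lactate. It had 14.18 in OG2.1, 14.16 in OG2.2, 14.36 in E3, 14.06 in E5, 14.32 in T9 and 14.24 in C1a1, against 11.71 in R1. The EpiSC lines were nearly level with each other (SD 0.11, n = 6), the tightest of the 8 genes that passed. On the EpiSC arrays only 56 to 74 probes were brighter, and whether this narrowed the spread was not tested. The increase of 2.51 (SE 0.22, adjusted p = 2.85e-04) is 5.69-fold, and the deposited signal was 17476 to 21705 in EpiSC lines and 3476 in R1.

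Slc16a3 encodes the lactate exporter MCT4. It had 7.20 in OG2.1, 8.18 in OG2.2, 7.01 in E3, 8.35 in E5, 8.15 in T9 and 7.87 in C1a1, and was not above background in R1, so it was kept only through the EpiSC lines. On this scale EpiSCs were at least 4.28-fold higher (fitted difference 3.29, SE 0.52, adjusted p = 0.00478). The size depends on the background treatment, at 1.59 without correction and 5.17 in the deposited log2 values, and was 1.73 as the mean of both probes. A second probe, above background in 1 EpiSC line, gave 0.16 (SE 0.31, adjusted p = 0.782 over all kept probes). The promoter stretches of the 2 lactate genes called higher are shown in the same way as above.
Ldha, chr7:46845654-46845803, plus strand: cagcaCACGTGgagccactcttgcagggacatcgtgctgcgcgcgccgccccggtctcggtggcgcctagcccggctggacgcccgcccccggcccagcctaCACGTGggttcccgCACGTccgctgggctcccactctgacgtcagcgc
Slc16a3, chr11:120948917-120949066, plus strand: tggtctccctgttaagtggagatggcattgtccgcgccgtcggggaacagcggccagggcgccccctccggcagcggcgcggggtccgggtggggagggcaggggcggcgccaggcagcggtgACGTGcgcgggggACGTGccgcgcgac
The Ldha stretch holds 3 separate sites, 2 of them the palindrome CACGTG, which reads ACGTG on both strands, and the Slc16a3 stretch holds 2. Within the 250 bases before the transcript start, ACGTG on either strand was found in 3 of the 6 genes called higher, in 0 of the 2 called lower and in 11 of the 23 others that had a window, against 25.4% of the array's tested genes that had one. GCGTG was found in 3 of 6, 2 of 2 and 15 of 23, against 49.8%. A gene with several transcript starts counted if any of its windows held the letters. These are letter matches, not measured binding, and the Ldha window shown is the first of the 2 listed.

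Pyruvate dehydrogenase kinases shut the entry of pyruvate into the TCA cycle. Pdk1 was below R1 in every EpiSC line (8.93 to 10.19, against 10.70), and the difference of -1.09 (SE 0.49) did not pass (adjusted p = 0.184). E5 (8.93) and C1a1 (9.19) were the lowest lines and T9 (10.19) the highest. Pdk3 differed by 0.11 (SE 0.35, adjusted p = 0.870). Of the pyruvate dehydrogenase subunits, the E1 genes Pdha1 (-0.13) and Pdhb (-0.16) overlapped R1, while the E2 gene Dlat lay above it in all 6 lines (0.68, SE 0.39, adjusted p = 0.293). Pcx, the pyruvate carboxylase that refills the cycle, was above background in R1 alone and was kept only for that reason, at least 1.18-fold lower in EpiSCs (adjusted p = 0.230).

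Within the TCA cycle, the mitochondrial isocitrate dehydrogenase genes Idh3a and Idh2 had differences of opposite sign, and neither passed. Idh3a, a subunit of the NAD-dependent enzyme, had 8.32 in OG2.1, 8.72 in OG2.2, 9.57 in E3, 8.96 in E5, 9.33 in T9 and 9.15 in C1a1, against 7.77 in R1. All 6 lines were above R1, but the difference of 1.24 (SE 0.43) did not pass (adjusted p = 0.0940) except without OG2.1, the lowest line (1.38, adjusted p = 0.0414), or without OG2.1 and OG2.2 together (1.48, adjusted p = 0.0317). Idh2, the NADP-dependent mitochondrial enzyme, was below R1 in all 6 lines (9.90 to 11.09, against 11.67; -1.12, SE 0.43, adjusted p = 0.125). Cytosolic Idh1 overlapped R1 (-0.08, SE 0.33).

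Ogdh, a subunit of the oxoglutarate dehydrogenase complex, was below R1 in all 6 lines too (7.99 to 8.82, against 9.06; -0.81, SE 0.34, adjusted p = 0.153). The remaining cycle genes differed less: citrate synthase Cs by -0.22, the succinyl-CoA ligase subunit Suclg1 by -0.23, fumarase Fh1 by -0.11, and malate dehydrogenases Mdh2 by -0.34 and Mdh1 by 0.36. None of these 5 passed (adjusted p from 0.386 to 0.865). The 25 genes that did not pass had differences from -1.12 to 2.08.

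Isoforms of a step were then set side by side as each gene's own difference from R1, since levels of different probes cannot be compared. Of 13 pairs planned, 8 had both genes measured. With 6 lines against 1 no exact permutation test can reach 0.05, so the values are given without a test. The phosphofructokinase pair Pfkl and Pfkp was the furthest apart, with a Pfkl difference exceeding the Pfkp difference by 5.82 ± 0.51 (SD, n = 6 lines) and by 5.20 to 6.56 in single lines. Pfkm exceeded Pfkp by 3.86 ± 0.52 and Aldoc exceeded Aldoa by 3.01 ± 0.41. All 6 values of a pair subtract the same R1 array, so their common sign in each of the 8 pairs is no replicate support.

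Among the transporters, Slc2a3 fell short of Slc2a1 by -1.55 ± 0.54 (SD, n = 6), most in E3 (-2.38) and least in OG2.1 (-0.97). Hk2 exceeded Hk1 by 0.99 ± 0.38, and Pdk3 exceeded Pdk1 by 1.20 ± 0.77, with E3 at 0.01 and E5 at 2.19. In the TCA cycle Idh2 stood at -1.03 ± 0.56 relative to Idh1, and mitochondrial Mdh2 at -0.70 ± 0.18 relative to cytosolic Mdh1.

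**Figure D3:**
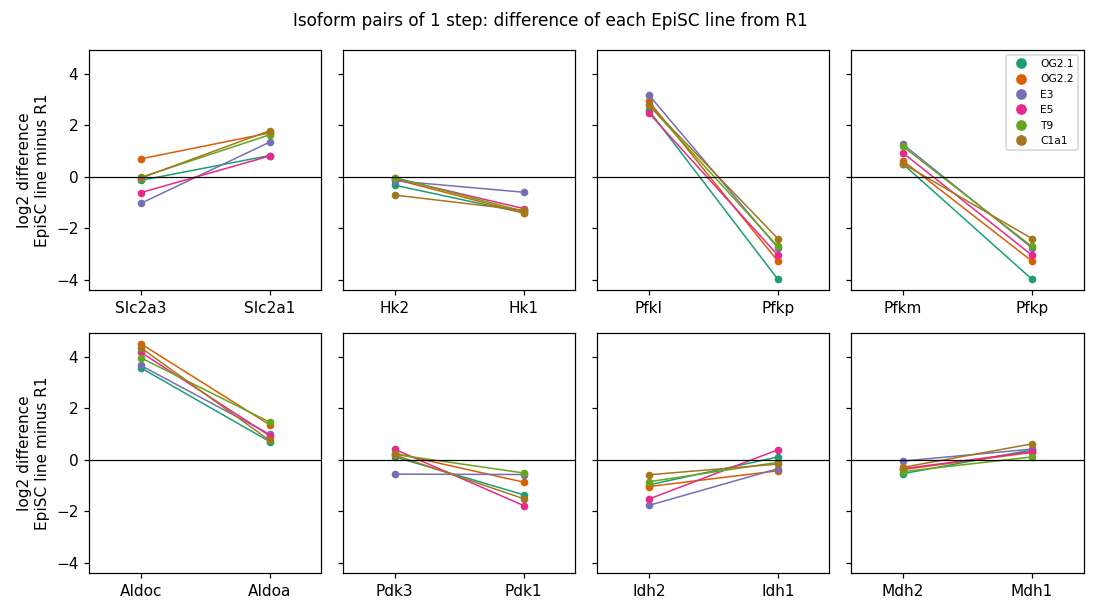
Log2 difference from R1 of the 2 genes of each measured pair, 1 line per EpiSC line. All 6 lines of a panel share the R1 array as their zero, and Pfkl and Pfkp lie on opposite sides of 0.

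Where a gene had more than 1 kept probe (9 of the 33 genes), the probes were compared with each other. They gave the same sign for 6 genes and different signs for Gapdh, Suclg1 and Mdh1, none of which passed. Of the 4 genes that passed and had several probes, Pfkp passed with both and Tpi1 with 2 of 3. Pfkl and Slc16a3 passed only with the brighter of 2 probes.

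**Figure D4:**
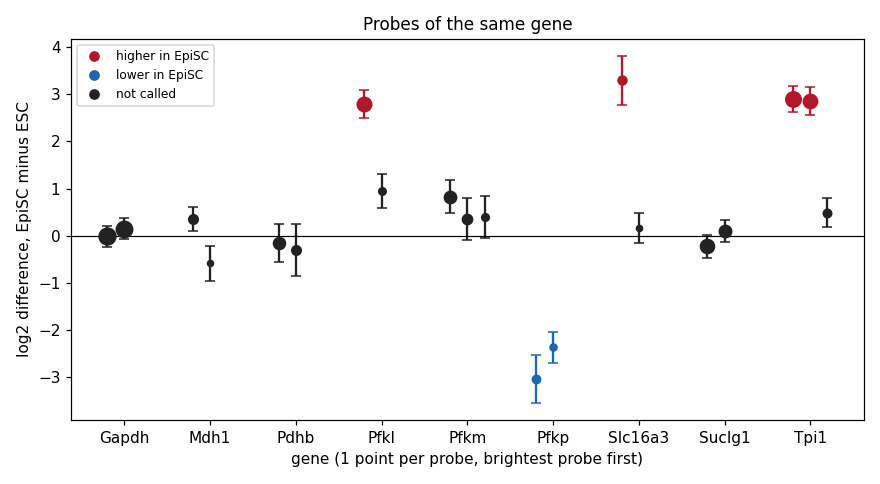
Log2 difference, EpiSC minus ESC, with its SE from limma, for each kept probe of the 9 genes with more than 1; larger points are brighter probes in the EpiSC lines. The bright probes lie at 2.79 for Pfkl and at 2.90 and 2.85 for Tpi1, and their dimmest probes at 0.96 and 0.49.

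Each EpiSC line was also compared with the mean of the other 5, the question raised by the series title. Limma called 0 of the 33 genes in any line, and few genes at all: 0.0434% of all genes in OG2.1, 0.0% in OG2.2 and in E5, 0.0651% in E3 and in C1a1 and 0.0109% in T9. At an unadjusted p under 0.05 there were 2 of the 33 genes in OG2.1 (6.06%, against 5.98% of all genes), 2 in OG2.2 (6.06%, against 5.29%) and 3 in E3 (9.09%, against 6.23%). There were 0 in E5 (against 8.10% of all genes), 0 in T9 (against 2.18%) and 4 in C1a1 (12.1%, against 6.07%). The median SD of the 33 genes over the lines was 0.32, against 0.33 over all genes. It ran from 0.07 for Gapdh and 0.11 for Ldha to 0.59 for Slc2a3 and 0.82 for Eno2.

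In OG2.2, 2 genes had an unadjusted p under 0.05 and neither passed. Eno2 was at 8.22 there and at most 7.19 in the other lines (difference 1.64, SE 0.49, adjusted p = 0.746), and the glucose transporter Slc2a3 was at 13.84 and at most 13.13 elsewhere (1.07, SE 0.42, adjusted p = 0.909). A list of other hypoxia-response genes had its highest median over the lines in OG2.2 (8.42) and its lowest in E5 (6.01), against 5.72 in R1. P4ha1 was kept only through OG2.2, Adm only through OG2.2 and C1a1, and Car9 only through C1a1, so this order of lines partly reflects the filter. Eno2 was highest in OG2.2 and lowest in E5, whereas Slc2a3 was highest in OG2.2 and lowest in E3, and Slc16a3 was highest in E5 and lowest in E3. The part of the hypoxia response in these values was not tested.

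The other lines differed in single genes, none past the threshold. OG2.1 had the lowest Pfkp, at 6.31 against a mean of 7.45 in the other lines (-1.14, SE 0.35, adjusted p = 0.707), and the lowest Idh3a. It was the highest line for 1 of the 33 genes (3.03%, against 15.9% of all genes) and the lowest for 7 (21.2%, against 17.6%). In E3, Hk1 was higher by 0.74 (SE 0.22) and Pdk3 lower by 0.79 (SE 0.23; adjusted p = 0.622 for both), and the TCA enzyme Fh1 was lowest. In C1a1, Hk2, Pgam1 and Cs were the lowest of the 6 lines and Ogdh was the highest, at differences of -0.58, -0.63, -0.63 and 0.69 (adjusted p = 0.809, 0.809, 0.820 and 0.809). T9 was the highest line for 6 genes (18.2%, against 10.7%), Pdk1, Pdhb and Aldoa among them.

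**Figure D5:**
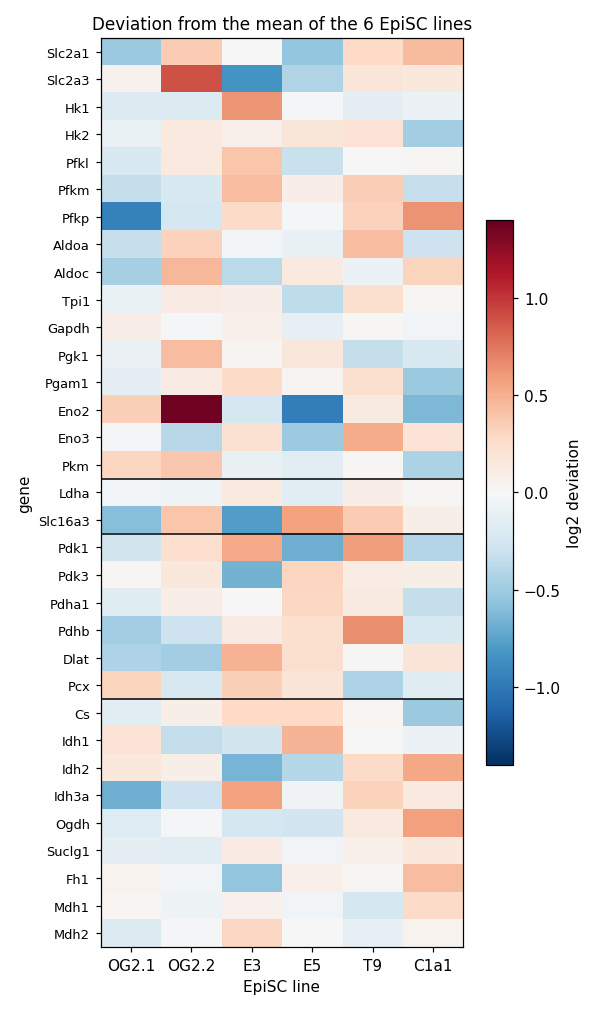
Deviation of each EpiSC line from the mean of the 6 lines (log2, colour scale) for the 33 genes, in pathway order with black rules between its 4 sections. The darkest cells are Eno2 in OG2.2, Eno2 in E5 and Pfkp in OG2.1, and Gapdh and Ldha are pale in all 6 lines.

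Other genes of these pathways were taken from a list of 74, of which 61 were on the array and 42 were above background on at least 1 array. In EpiSCs 1 was higher and 4 were lower, against 7.1% higher and 8.11% lower of all genes, with a median difference of -0.13. Of the 4 lower genes, 3 (Fbp2, Tktl1 and Epas1) were above background in R1 alone and were kept only for that reason, so they are given as bounds. The higher gene was Pfkfb4, whose enzyme makes and breaks down fructose-2,6-bisphosphate, the activator of phosphofructokinase. It was not above background in R1 and was kept only through the EpiSC lines. On this scale it was at least 1.96-fold higher (fitted difference 1.03, SE 0.25, adjusted p = 0.0310). Tigar, which lowers the same activator, fell by 1.85 (SE 0.36, adjusted p = 0.0109) and was above background in R1 and 1 EpiSC line. Fbp2, the muscle fructose-1,6-bisphosphatase of gluconeogenesis, was at least 6.38-fold lower in EpiSCs on this scale.

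The other 2 lower genes were Tktl1, a transketolase-like gene, and Epas1, which encodes the hypoxia-inducible factor HIF-2 alpha. Tktl1 was at least 1.31-fold lower in EpiSCs and Epas1 at least 2.18-fold lower, both on this scale. Hif1a (0.55), Myc (0.38) and Arnt (-0.32) did not pass (adjusted p = 0.503, 0.605 and 0.717). None of 11 other TCA cycle genes passed, against 15.2% of all genes, and their differences lay between -0.27 and 0.41. Of 8 tested hypoxia-response genes, 2 passed as higher in EpiSCs, against 7.1% of all genes. Egln3, a prolyl hydroxylase of hypoxia-inducible factors, was kept only through the EpiSC lines (at least 7.34-fold higher on this scale, adjusted p = 0.00564). Ddit4, an inhibitor of mTORC1 signalling, differed by 1.92 (SE 0.36, adjusted p = 0.0103). This list too was chosen with earlier results known, so its share is no independent support.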

How the data were processed

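The authors deposited probe signal intensities on a linear scale with a detection p-value per probe and array, per the file headers, and a table of log2 values whose columns share 1 distribution (median 3.98). The submitters' processing notes name BeadStudio 3.2, RMA and lumi; the background treatment of the deposited log2 values is not given in the sources used here. Intensities were background-corrected and quantile-normalized with neqc (offset 16) in limma 3.58.1 under R 4.3.3. The filter kept 13396 of 25697 probes, those whose detection p fell under 0.01 on any array, named by the platform's symbol, and the brightest probe on average stood for its gene. Limma's moderated test compared 6 EpiSC arrays with 1 ESC array (5 residual degrees of freedom), and each EpiSC line with the other 5 (4), with Benjamini-Hochberg adjustment over 9213 genes. A gene not above background in a whole group is given as a lower bound against the lowest signal above background. Such a bound holds for the group mean on the neqc scale only. Each deposited log2 column correlated best with its own array (r of 0.820 to 0.878 over deviations, at most 0.233 with another). All members were described, with every array's value for those that passed. The members and lists were chosen with earlier results of these data known. The fits were also run on simulated data that gave the ESC array the spread of the EpiSC lines, so a deviation of R1 alone was not tested. Promoter letters come from RefSeq's GRCm38.p6 table.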

Additional observations from a re-analysis of the deposited data

Results flagged for a closer look

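Among the 33 genes, 2 had an EpiSC line far from the other 5, both in E3; chance gives about 1 in 20 genes. Hk1 was 6.63 in E3 and at most 5.99 in the other lines, a gap of 0.790 of the whole range. Pdk3 was 8.27 in E3 and at least 8.94 in the others, a gap of 0.697 of the range. Both gaps exceeded the critical value of Dixon's test.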

How the results depend on the processing

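Pfkl, Pfkp, Aldoc, Tpi1, Pkm, Ldha and Slc16a3 passed in the 15 settings that kept 1 value per gene, and the total of called genes stayed between 7 and 9. The count of lower genes was 1 in place of 2 in the deposited log2 values, without a detection filter, with a trended, robust variance and without OG2.1 and OG2.2, and ranged from 1 to 2 with 1 EpiSC line left out; Hk1 was the gene lost. With every probe tested on its own, a dimmer probe did not pass for Pfkl (0.96), Tpi1 (0.49) and Slc16a3 (0.16). Differences that turned sign belonged to genes that did not pass. Gapdh was 0.069 as the mean of its probes, 0.15 with its other probe, and from -0.030 to 0.010 with 1 EpiSC line left out (above 0 without E5). Mdh1 was -0.11 as the mean and -0.58 with its other probe, Suclg1 was 0.10 with its other probe, and Pdhb 0.039 without OG2.1 and OG2.2. Fh1 ran from -0.19 to 0.0017 with 1 line left out (above 0 without E3). Without background correction Hk2 minus Hk1 was 0.39, Pfkl minus Pfkp 5.09, Pfkm minus Pfkp 3.196 and Aldoc minus Aldoa 1.69, and 3 other pathway genes passed in place of 5. As means of probes, Pfkl minus Pfkp was 4.57, Pfkm minus Pfkp 3.23 and Mdh2 minus Mdh1 -0.23; in the deposited log2 values Aldoc minus Aldoa was 3.58. The cause of these moves was not tested. No paired analysis was possible because the ESC group has 1 array. The files name no slide, so a slide block was not run. Signals near background, as for Pgk1 and Pcx, limit what could be measured.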
